A study of Rattus norvegicus with 26 samples.

Results

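The remnant livers of rats that lost 2/3 of the liver were compared with those of rats that lost 1/3, both taken 36 hours after partial hepatectomy (PH). The members are the miRNAs with a detection call from the scanner software throughout 2/3PH 36H, throughout 1/3PH 36H, or in both, and 133 of the 677 miRNAs on the array met this rule. Of these, 117 were detected on all 6 arrays, 10 were complete only after 2/3 PH, and 6 only after 1/3 PH. All animals were male Sprague-Dawley rats, the liver piece was the right lobe left in place, and 1/3 PH took off the left lateral lobe. There was no sham operation. Rats without surgery gave the normal livers. Each group had 3 arrays, each of 1 rat per the methods. The sample titles say 36 hours for all 6 arrays, while the source names of the arrays in each group read 36, 37 and 38 hours. The series held 26 arrays in 9 groups, and the 24-hour groups 2/3PH 24H and 1/3PH 24H, with 3 arrays each, are used here as the earlier time.

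The 1/3 PH arrays of 36 hours were all read on the first of 3 scan days. The 2/3 PH arrays were read on the second day (replicates 1 and 2) and the third (replicate 3), so no day holds both groups. One normal liver was read on each day, which allows a fit with scan day as a block. The second day held no other arrays of the series. Its tie to the other days in that fit is therefore 1 normal liver and the match with 2/3 PH replicate 3. No slide holds both groups either, with 1/3 PH on slide 2 and 2/3 PH on slides 3 and 6. Between 132 and 138 miRNAs were detected on the 1/3 PH arrays and between 135 and 152 on the 2/3 PH arrays. One array of another group, 1/3PH 12H replicate 2, was dim, with 91 miRNAs detected, and leaving it out of the fit without a block left 21 calls. It was read on the third day, and no fit with scan day as a block left it out. The hepatocyte marker miR-122 was detected on all 6 arrays, and none of the muscle and brain markers looked for (4 and 2) was among the members. However, miR-1*, named as the opposite arm of the muscle marker miR-1, was a member, detected on 3 arrays of 1/3 PH and 2 of 2/3 PH. Its log2 difference, 2/3 PH minus 1/3 PH, was -0.94 ± 0.76 (SE) and did not pass the test (limma, adjusted p = 0.463).

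A miRNA is a short RNA that guides the silencing machinery to mRNAs, which it recognises mainly through its seed, bases 2 to 8. Several miRNAs are cut from a common precursor and are then called a cluster. miR-17/miR-92a and its copies miR-106b-25 and miR-106a-363 are known as targets of the E2F and MYC factors and as promoters of the G1 to S transition, whereas the miR-15/16 family and miR-34a are known for repressing cyclins and other cell cycle genes. After 2/3 PH most hepatocytes of a young rat enter the cell cycle within days, while removal of 1/3 of the liver is known to cause little DNA synthesis.

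Mature sequences were found for 89 of the 133 members in RefSeq (assembly GRCr8), 31 under the array's own name and 58 after the arm was added from the name. Of the 21 miRNAs that passed the test, 20 had a sequence. They are shown 5′ to 3′ with the seed in capitals. The first set holds the miRNAs with the seed of miR-17, which all lay above zero in the difference between operations.
miR-93: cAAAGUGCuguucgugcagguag
miR-17-5p: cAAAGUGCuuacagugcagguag
miR-20b-5p: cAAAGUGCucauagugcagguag
miR-106b: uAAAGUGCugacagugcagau
miR-20a: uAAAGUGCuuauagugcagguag

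miR-17-5p differed from miR-20a at 2 of 23 positions and from miR-20b-5p likewise at 2 of 23, so probes for these miRNAs may share signal, which was not tested. The next set holds the other members of the same clusters that passed the test. miR-18a has its own seed, close to that of miR-17, and miR-25 and miR-92a share a seed.
miR-18a: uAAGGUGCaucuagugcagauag
miR-25: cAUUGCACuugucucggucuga
miR-92a: uAUUGCACuugucccggccug

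The miR-15/16 seed family is shown because its members moved apart.
miR-15b: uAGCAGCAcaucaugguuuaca
miR-16: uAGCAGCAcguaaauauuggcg
miR-195: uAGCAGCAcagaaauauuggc
miR-497: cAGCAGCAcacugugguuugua
miR-322: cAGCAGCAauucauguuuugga

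The remaining miRNAs that were higher after 2/3 PH had no seed in common with one another.
miR-34a: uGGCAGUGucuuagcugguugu
miR-7a: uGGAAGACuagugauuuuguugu
miR-1949: uAUACCAGgaugucagcauaguu
miR-345-5p: uGCUGACCccuaguccagugc
miR-130a: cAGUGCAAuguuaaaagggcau
miR-98: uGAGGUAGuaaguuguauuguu

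Those that were lower, beside miR-195, were the following.
miR-26a: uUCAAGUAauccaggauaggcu
miR-22: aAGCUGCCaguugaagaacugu
miR-10a-5p: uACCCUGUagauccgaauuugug
miR-181a: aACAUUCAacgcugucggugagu
miR-125a-5p: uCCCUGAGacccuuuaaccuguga

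At 36 hours 15 of the 133 members were higher after 2/3 PH than after 1/3 PH and 6 were lower, 21 in all (limma, Benjamini-Hochberg over the 144 miRNAs of the fit). Among all 144 miRNAs fitted, 15.3% were called, 10.4% higher and 4.86% lower. The higher miRNAs were led by miR-15b, miR-18a, miR-1949, miR-93 and miR-34a, each over 2-fold, and they included all 3 members of miR-106b-25 and 4 of the 7 detected members of miR-17/miR-92a and miR-106a-363. The lower miRNAs were miR-181a, miR-26a, miR-195, miR-22, miR-10a-5p and miR-125a-5p, and their folds lay between 1.33 and 1.48. Values below are log2 of the summed probe signal divided by the 75th percentile of the array, and differences are 2/3 PH minus 1/3 PH on this scale. The 21 calls fell to 7 without 2/3PH 36H replicate 1, to 8 without 1/3PH 36H replicate 3 and to 11 without 1/3PH 36H replicate 2. There were 5 calls with the percentile taken over all probes, 1 with normexp background correction and 0 without scaling between arrays. With scan day as a fixed block 13 members were called, all higher, of which 10 were among the 21. With slide as a random block 9 of the 21 stayed called, and the miR-106b-25 members miR-93 and miR-25 were among them but miR-106b and the 4 members of the other clusters were not.

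**Figure D1:**
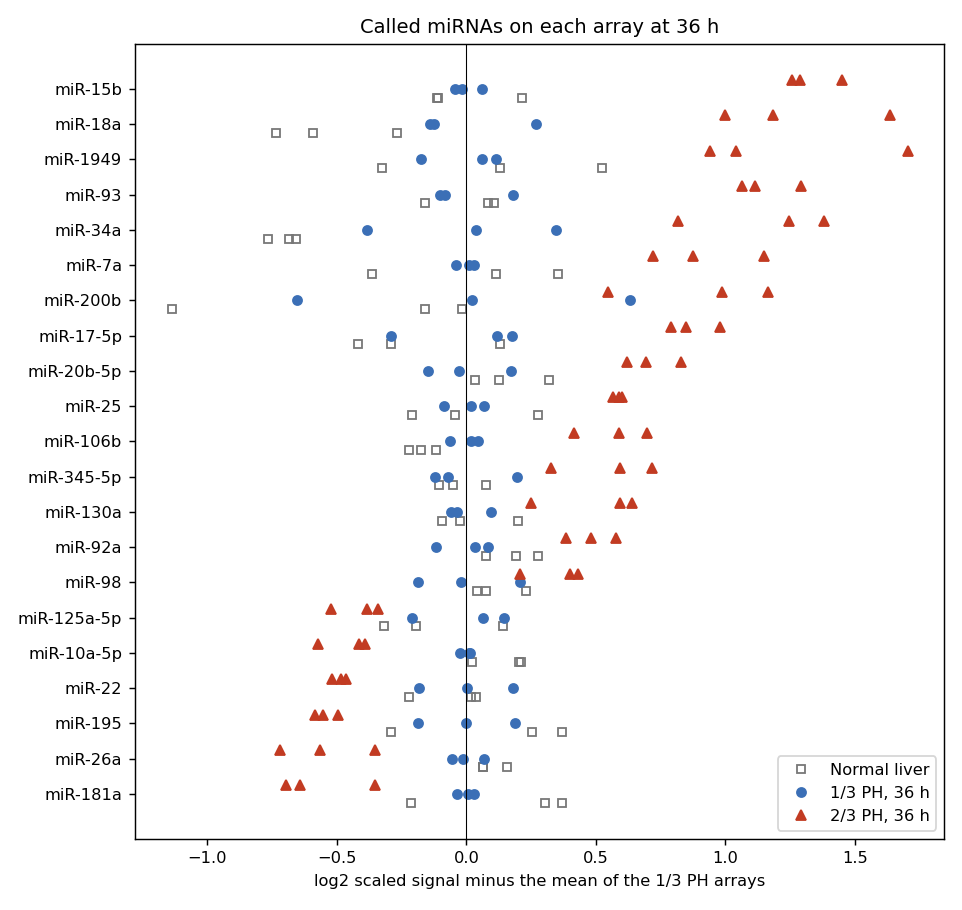
The 21 miRNAs called at 36 hours, in order of the difference, with each array as a point on a log2 scale set to 0 at the mean of the 1/3 PH arrays of that miRNA. Triangles are 2/3 PH (n = 3), circles 1/3 PH (n = 3) and open squares normal liver (n = 3). In 20 of the 21 the triangles and circles do not overlap, and miR-200b is the exception.

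miR-15b, the member of its family that is cut from a precursor together with miR-16, showed the largest difference among the called members under the floor and the fit used here, and miR-18a came above it with a floor of 1 signal unit and level with it with scan day as a block. Its values were -0.00, 0.08 and -0.03 on the 1/3 PH arrays and 1.30, 1.27 and 1.47 on the 2/3 PH arrays. Every 2/3 PH array lay above every 1/3 PH array. The difference of 1.33 ± 0.14 (SE) was a 2.52-fold higher signal (limma, adjusted p = 1.62e-06, n = 3 and 3). It was 1.51 ± 0.18 with scan day as a block (limma, adjusted p = 3.47e-05).

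miR-16 lies beside miR-15b, both hairpins within 244 bases of chromosome 2 (chr2:155555178-155555421, GRCr8, plus strand) inside the span of Smc4, a condensin subunit needed to compact chromosomes in mitosis. Its arrays gave 1.81, 1.83 and 1.72 after 1/3 PH and 2.19, 2.10 and 1.98 after 2/3 PH. The groups did not overlap, but the difference of 0.31 ± 0.23 did not pass the test (limma, adjusted p = 0.463). With scan day as a block it was 0.73 ± 0.18 and did pass (limma, adjusted p = 0.0191).

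miR-195 and miR-497, which share the seed of miR-15b and are known as negative regulators of the cell cycle, lay on the other side. Both come from 411 bases of chromosome 10 (chr10:55450171-55450581, plus strand). miR-195 read 0.54, 0.73 and 0.36 after 1/3 PH and -0.04, 0.05 and -0.01 after 2/3 PH. All 2/3 PH arrays were below all 1/3 PH arrays, and miR-195 fell by 0.54 ± 0.18 (limma, adjusted p = 0.0472). miR-497 read 0.08, 0.16 and -0.15 against -0.28, -0.24 and -0.31. Its difference was -0.31 ± 0.16 and was not called (limma, adjusted p = 0.262). miR-322, the X-linked member, differed by -0.19 ± 0.14 (limma, adjusted p = 0.463). The family as listed therefore had 1 of 5 members called higher and 1 called lower, with a median of -0.19, beside a median of -0.08 over all 133. miR-195 differs from miR-16 at 2 of 21 aligned positions, whereas miR-15b differs from miR-16 at 8 of 22.

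The call of miR-195 was lost on leaving out any 1 of the 6 arrays, and with scan day as a block it was -0.32 ± 0.18 (limma, adjusted p = 0.382). That of miR-15b was kept in all 26 fits that left out 1 array, where its difference ran from 1.27 to 1.37.

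**Figure D2:**
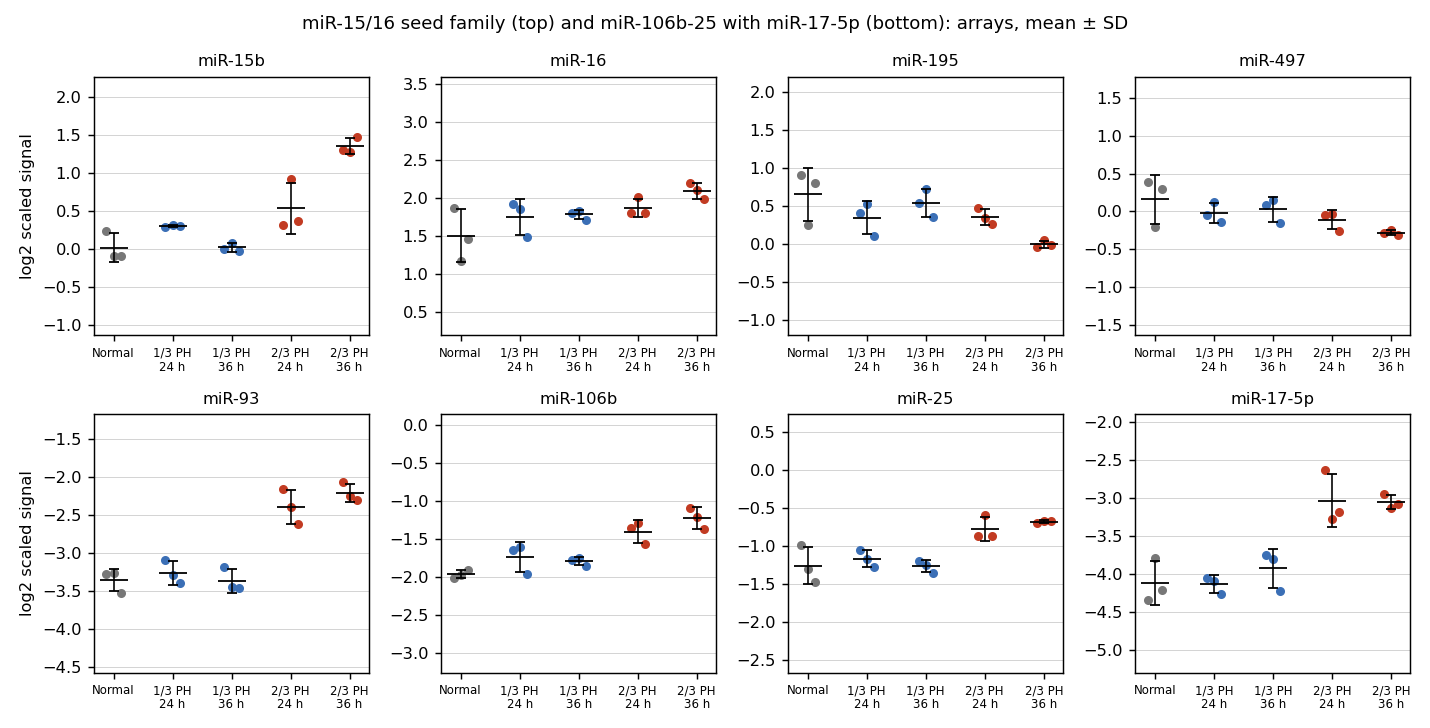
Log2 scaled signal on each array in normal liver and at 24 and 36 hours after 1/3 PH and 2/3 PH, with mean and SD (n = 3 per group); the panels have their own axis positions and 1 common height. Of the 5 group means, that of 2/3 PH at 36 hours is the highest for miR-15b and miR-16 and the lowest for miR-195 and miR-497, while the means of miR-93, miR-106b, miR-25 and miR-17-5p are above those of 1/3 PH at both times.

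The miR-106b-25 cluster was higher after 2/3 PH in all 3 members. Its hairpins span 494 bases of chromosome 12 (chr12:22156641-22157134, minus strand) inside Mcm7, which encodes a subunit of the replicative helicase. miR-93 gave -3.18, -3.44 and -3.46 after 1/3 PH and -2.07, -2.25 and -2.30 after 2/3 PH, a 2.23-fold difference (1.16 ± 0.13; limma, adjusted p = 1.82e-06). miR-106b gave -1.78, -1.75 and -1.85 against -1.10, -1.21 and -1.38, which is 1.48-fold (0.57 ± 0.15; adjusted p = 0.0174 by limma). In neither of these miRNAs did the groups overlap. miR-25 gave -1.20, -1.25 and -1.35 against -0.70, -0.67 and -0.68, and its 2/3 PH arrays were the closest together of the cluster (0.58 ± 0.16; limma, adjusted p = 0.0186). The cluster's median difference was 0.58. All 3 were called also with scan day as a block, at 1.28 for miR-93, 0.61 for miR-106b and 0.94 for miR-25. With slide as a random block miR-106b was not called (limma, adjusted p = 0.0567), and miR-25 was called in 2 of the 6 fits that left out 1 of these arrays.

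Of the miR-17/miR-92a cluster, 6 members are found in 785 bases of chromosome 15 (chr15:98587848-98588632, plus strand), and all 6 differences were above 0, from 0.22 to 1.27. Over all 133 members, 54 differences were above 0. miR-18a read -4.20, -3.81 and -4.22 after 1/3 PH and -2.44, -2.89 and -3.07 after 2/3 PH. It was detected on 1 of the 3 1/3 PH arrays, and its values on replicates 2 and 3 are the floor of those arrays. The difference of 1.27 ± 0.33 therefore rests on that floor (limma, adjusted p = 0.0172), and a floor of 1 signal unit gave 1.85.

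miR-17-5p, whose loci lie in this cluster and in the X-linked one, read -3.75, -3.81 and -4.22 against -2.94, -3.13 and -3.07, also with replicates 2 and 3 of 1/3 PH at the floor. Its difference was 0.87 ± 0.25 (limma, adjusted p = 0.0234). The call was lost with scan day as a block (0.90 ± 0.35; limma, adjusted p = 0.157). miR-92a, the last miRNA of the cluster, read 0.74, 0.70 and 0.54 against 1.24, 1.05 and 1.14, without overlap (0.48 ± 0.15; limma, adjusted p = 0.0332).

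miR-19a and miR-20a, both of this cluster, did not pass the test although their groups did not overlap. miR-19a differed by 0.84 ± 0.31 (limma, adjusted p = 0.0801) and miR-20a by 0.67 ± 0.26 (limma, adjusted p = 0.103), next to the threshold. miR-20a passed with scan day as a block, at 1.03 ± 0.25 (limma, adjusted p = 0.0191), and miR-19a did not, at 0.28 ± 0.37 (limma, adjusted p = 0.787). miR-19b, which has the seed of miR-19a, read 1.22, 1.31 and 1.26 against 1.45, 1.40 and 1.60 and differed by 0.22 ± 0.19.

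miR-20b-5p belongs to the miR-106a-363 cluster, of which 720 bases of chromosome X (chrX:137342928-137343647, minus strand) hold loci of 4 members. It read -2.23, -2.43 and -2.55 after 1/3 PH and -1.58, -1.78 and -1.71 after 2/3 PH, a difference of 0.71 ± 0.20 (limma, adjusted p = 0.0186). miR-106a, miR-18b and miR-363 were not among the members, and only 8 of the 10 miRNAs listed for both clusters were on the array. Of the list written for both clusters, 4 of 7 members were called higher and 0 lower, with a median of 0.71, where 10.4% of the 144 fitted were called higher. Of these 4, miR-18a is a member only through its detection after 2/3 PH. The differences of miR-18a and miR-17-5p rest in part on the floor, which both met on 2 of the 1/3 PH arrays. None of the 4 stayed called with slide as a random block, where the correlation within a slide was estimated (limma, adjusted p = 0.0567 for miR-18a, 0.0819 for miR-17-5p, 0.0695 for miR-20b-5p and 0.0773 for miR-92a).

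miR-34a, a direct target of p53 that represses cyclin and CDK mRNAs, was 2.22-fold higher after 2/3 PH. It read -1.06, -1.79 and -1.37 after 1/3 PH, against -0.03, -0.59 and -0.16 after 2/3 PH, so the lowest 2/3 PH array stood above the highest 1/3 PH array. The difference was 1.15 ± 0.22 (limma, adjusted p = 0.00173) and 1.42 ± 0.27 with scan day as a block. In normal liver it was lower still, at -2.11 ± 0.06 (SD, n = 3). The other 3 miRNAs of its family, miR-34b, miR-34c and miR-449a, were not among the members.

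miR-1949, a rat miRNA within the span of Matr3 on chromosome 18, read -3.51, -3.81 and -3.57 after 1/3 PH, replicate 2 being at the floor, and -1.93, -2.69 and -2.59 after 2/3 PH. It was 2.34-fold higher (1.23 ± 0.26; limma, adjusted p = 0.00386). miR-7a, a brake on growth factor signalling in other tissues, 1 of whose genes lies in Hnrnpk, read -3.81, -3.79 and -3.86 against -2.94, -3.10 and -2.67. It was 1.89-fold higher (0.92 ± 0.20; limma, adjusted p = 0.00412), but with scan day as a block 0.79 ± 0.25 (limma, adjusted p = 0.0603).

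miR-130a, known from angiogenesis, read -0.57, -0.70 and -0.73 after 1/3 PH and -0.02, -0.42 and -0.07 after 2/3 PH (0.49 ± 0.12; limma, adjusted p = 0.0132). miR-345-5p differed by 0.55 ± 0.15 (limma, adjusted p = 0.0186), with 2/3 PH arrays between -2.40 and -2.01 and 1/3 PH arrays between -2.85 and -2.54. It was 0.57 ± 0.21 with scan day as a block and was then not called (limma, adjusted p = 0.126). The opposite arm of its hairpin, miR-345-3p, differed by 0.47 ± 0.45 and was not called. miR-98 was the only 1 of the 8 members with the let-7 seed to be called, at 0.35 ± 0.12 (limma, adjusted p = 0.0472). Its groups nearly touched, at -2.66 on the highest 1/3 PH array and -2.65 on the lowest 2/3 PH array, and 4 of 26 fits that left out 1 array called it. Of the 13 alternatives of processing or model 1 kept the call, and with scan day as a block the difference was 0.37 ± 0.15 (limma, adjusted p = 0.189). The differences of the let-7 seed members ran from -0.28 to 0.35 with a median of 0.03.

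miR-200b, an epithelial miRNA that marks bile duct cells rather than hepatocytes, was the called member whose groups overlapped. It read -1.85, -2.46 and -3.14 after 1/3 PH and -1.32, -1.50 and -1.94 after 2/3 PH (0.90 ± 0.29; limma, adjusted p = 0.0413). Its neighbours miR-200a and miR-429, on 1908 bases of chromosome 5 (chr5:171929682-171931589), differed by 0.26 ± 0.30 and 0.71 ± 0.29 and were not called. Both neighbours were at the floor on replicates 2 and 3 of 1/3 PH, so their differences rest in part on it. miR-200c and miR-141, the rest of the biliary list, were not among the members. The miR-200b call was kept in 2 of the 6 fits that left out 1 of these arrays and was lost with scan day as a block (1.10 ± 0.40; limma, adjusted p = 0.116). In a bulk liver piece, more cells of a type and more RNA per cell cannot be told apart, here or for any other miRNA.

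Of the lower miRNAs, miR-26a is known for slowing the cell cycle in liver cells through cyclins D2 and E2. It lies in Ctdspl on chromosome 8 and read 1.43, 1.35 and 1.31 after 1/3 PH and 0.64, 0.80 and 1.01 after 2/3 PH, without overlap. It fell by 0.55 ± 0.11 (limma, adjusted p = 0.00333) and was called in all 26 fits that left out 1 array. With scan day as a block the difference was -0.42 ± 0.14 (limma, adjusted p = 0.0782). Its family member miR-26b differed by -0.24 ± 0.11 (limma, adjusted p = 0.155).

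miR-10a-5p, which sits in a Hox gene cluster, read -0.57, -0.53 and -0.53 after 1/3 PH and -0.96, -1.12 and -0.93 after 2/3 PH. The 1/3 PH arrays lay close together, above all 2/3 PH arrays, and it fell by 0.46 ± 0.10 (limma, adjusted p = 0.00412). It too was called in all 26 fits that left out 1 array, but not with scan day as a block (-0.29 ± 0.12; limma, adjusted p = 0.189). Of the list of miR-10, miR-99, miR-100 and miR-125 miRNAs, all 5 members lay below 0, with a median of -0.42, and 2 were called (miR-10a-5p and miR-125a-5p). Over all 133 members 54 lay above 0 and the median was -0.08, so most members lay below 0. With scan day as a block the median of the list was -0.21, beside 0.00 over all 133.

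miR-22, known in liver for its link to bile acid and lipid metabolism, read 3.53, 3.89 and 3.72 after 1/3 PH and 3.23, 3.19 and 3.25 after 2/3 PH. It fell by 0.49 ± 0.13 (limma, adjusted p = 0.0186). With scan day as a block the difference was -0.47 ± 0.18 (limma, adjusted p = 0.15). miR-181a fell by 0.56 ± 0.18 (limma, adjusted p = 0.0413), with 1/3 PH arrays between -3.53 and -3.47 and 2/3 PH arrays between -4.19 and -3.85. miR-125a-5p fell by 0.42 ± 0.14 (limma, adjusted p = 0.0465), and none of the 13 alternatives of processing or model kept that call. The direction of 3 lower miRNAs depended on the scaling: with normexp, miR-181a, miR-10a-5p and miR-125a-5p lay at 0.54, 0.11 and 0.55, and with the percentile over all probes miR-10a-5p and miR-125a-5p lay at 0.0273 and 0.0699. These settings moved the median of the 133 members from -0.08 to 0.50 and 0.41.

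Scan day moved with the operation, so the 6 arrays were also set against the normal liver of their own day, as a description. All 15 higher miRNAs stood above the same-day normal liver on all 3 of the 2/3 PH arrays, and all 6 lower miRNAs stood below it on all 3. On all 3 of the 1/3 PH arrays 5 of the 15 also stood above it and 3 of the 6 also below it. The 21 were called from these same arrays, so the counts for 2/3 PH are in part built in and are no separate support. miR-195 gave -0.84, -0.75 and -0.26 after 2/3 PH and -0.37, -0.18 and -0.56 after 1/3 PH, and miR-125a-5p gave -0.0227, -0.20 and -0.19 against 0.0071, -0.0748 and -0.35, so both overlapped. Among the higher miRNAs miR-98 overlapped, at 0.32, 0.13 and 0.20 after 2/3 PH against 0.17, -0.06 and -0.23 after 1/3 PH. For miR-15b these differences were 1.40, 1.37 and 1.56, against -0.23, -0.15 and -0.26 for the 1/3 PH arrays. For miR-26a the 2/3 PH arrays gave -0.78, -0.63 and -0.51, and the 1/3 PH arrays 0.00, -0.08 and -0.12. For miR-181a, by contrast, the 2/3 PH arrays gave -0.48, -0.43 and -0.66, and the 1/3 PH arrays -0.34, -0.36 and -0.41, a narrower gap. In the fit with scan day as a block, all 21 kept their sign, 10 of the 15 higher miRNAs stayed called and 0 of the 6 lower ones did. The 6 lower differences with scan day as a block ran from -0.47 to -0.21.

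**Figure D3:**
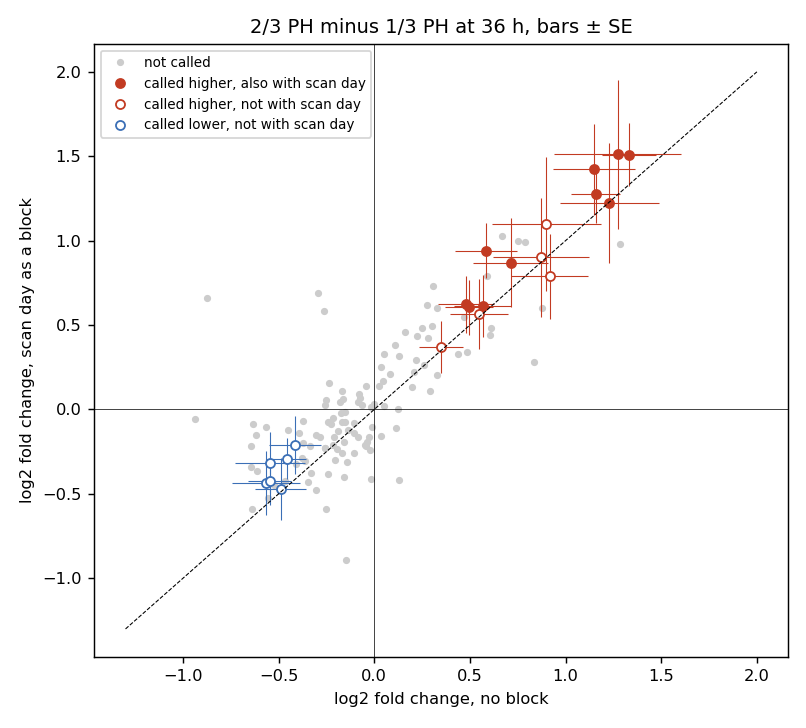
The difference between 2/3 PH and 1/3 PH at 36 hours for the 133 members without a block (horizontal) and with scan day as a block (vertical), both log2, with SE bars on the called members; the dashed line marks equal values. Filled coloured points are called in both fits, and grey points are not called without the block. The 10 filled coloured points are all on the higher side, and the 6 lower miRNAs lie nearer to 0 with the block or close to the line.

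Each operation was also set against normal liver at 36 hours. After 2/3 PH 27 of the miRNAs fitted were called against normal liver (18.8% of 144), 12 of the 15 higher miRNAs and 5 of the 6 lower ones among them. After 1/3 PH 0% were called by limma, and 7 passed an unadjusted p of 0.05. Both contrasts share the 3 normal livers, so they are only given side by side. miR-15b was 1.33 above normal after 2/3 PH and 0.00 after 1/3 PH. miR-34a was 1.85 above normal after 2/3 PH and 0.70 ± 0.22 after 1/3 PH (limma, adjusted p = 0.342). miR-93 was 1.15 above normal after 2/3 PH and -0.01 after 1/3 PH. miR-26a fell by 0.64 after 2/3 PH and by 0.09 after 1/3 PH. miR-21, an injury-induced miRNA that promotes regeneration in rodents, was 0.65 above normal after 2/3 PH (limma, adjusted p = 0.0142) and 0.17 after 1/3 PH. Between the operations miR-21 differed by 0.48 ± 0.19 and was not called (limma, adjusted p = 0.104), though its arrays did not overlap, at 4.82, 4.64 and 4.74 against 5.55, 4.94 and 5.17.

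At 24 hours the same contrast called 4 members, 2.78% of the 144 fitted, and all 4 were also called at 36 hours. miR-93 was 0.87 ± 0.13 higher after 2/3 PH at 24 hours (limma, adjusted p = 0.000248), miR-18a 1.29, miR-17-5p 1.10 and miR-20b-5p 0.81. At 24 hours the groups shared the first scan day except for 1 array of 1/3 PH, read on the third. Of the 21 miRNAs called at 36 hours, 18 had a 24-hour difference of the same sign. The same share was not counted over all 133 members, so no agreement between the times is read from it. The change of the difference from 24 to 36 hours passed the test for 1 miRNA, 0.694% of the 144. That was miR-15b (the count was 0 under 5 of the alternatives), whose difference was 0.23 ± 0.14 at 24 hours and 1.10 ± 0.20 larger at 36 hours (limma, adjusted p = 0.00356). Its 24-hour arrays read 0.29, 0.31 and 0.29 after 1/3 PH and 0.31, 0.92 and 0.37 after 2/3 PH, so replicate 2 of 2/3 PH stood above the rest. For miR-34a the difference grew by 0.85 and for miR-195 it fell by 0.55 between the times, neither past the test.

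Of the hepatocyte list 0 of 3 members were called. miR-122, the liver's leading miRNA, read 7.36, 7.58 and 7.35 after 1/3 PH and 7.29, 7.39 and 7.47 after 2/3 PH (-0.05 ± 0.12). miR-192 differed by -0.02 ± 0.09 and miR-194 by -0.15 ± 0.12. Of the leukocyte, stellate, endothelial and red cell lists, 0 of 5, 0 of 4, 0 of 1 and 0 of 1 were called, with medians of -0.25, -0.21, -0.26 and -0.19. The biliary list, described above, had 1 of 3 called. Its median of 0.71 is the value of miR-429, which rests in part on the floor. Among all 144 miRNAs fitted 15.3% were called, and these lists are too short for their counts to be told apart from that share. The part of these markers in the differences was not tested.

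The range of sizes was wide at low signal and narrow at high signal, as the plot of difference against level shows. On the share measure of the study, 47.4% of the 133 members lay under 0.8-fold or over 1.2-fold, 35 over and 28 under. The single 2/3 PH arrays set against the 1/3 PH mean gave 57.1%, 41.4% and 51.1% (SD 7.97 percentage points). Of these 63 members, 21 were called, and 29 of the other 42 had overlapping groups. Among all 133, 20 had 2/3 PH arrays wholly above the 1/3 PH arrays and 25 wholly below, where 13.9% and 22.2% of the 144 fitted did so. The median SE was 0.15 for the called members and 0.35 for those outside the fold limits but not called.

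A small group of dim miRNAs had large values and no call. 7 members spread over the 1/3 PH arrays with an SD above 0.8, and all 7 were highest on 1/3PH 36H replicate 2. They were miR-139-3p, miR-743a, miR-3562, miR-125a-3p, miR-878, miR-3561-5p and miR-547, singled out after their values were seen. miR-139-3p read -4.06, -0.85 and -2.50 after 1/3 PH and -0.33, -1.92 and -1.31 after 2/3 PH. Its difference of 1.28 ± 0.98 was as large as that of miR-18a, but the groups overlapped (limma, adjusted p = 0.463). The other 6 had differences between 0.44 and 0.88. miR-125a-3p, at 0.75 ± 0.64, went the opposite way from miR-125a-5p of the same hairpin. The SD limit looked at the 1/3 PH arrays only, and other dim members without a call went the other way. miR-1*, miR-3549, miR-296*, miR-1249, miR-702-3p and miR-3544 had differences between -0.94 and -0.56. Each was at the floor on 2/3PH 36H replicate 3.

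**Figure D4:**
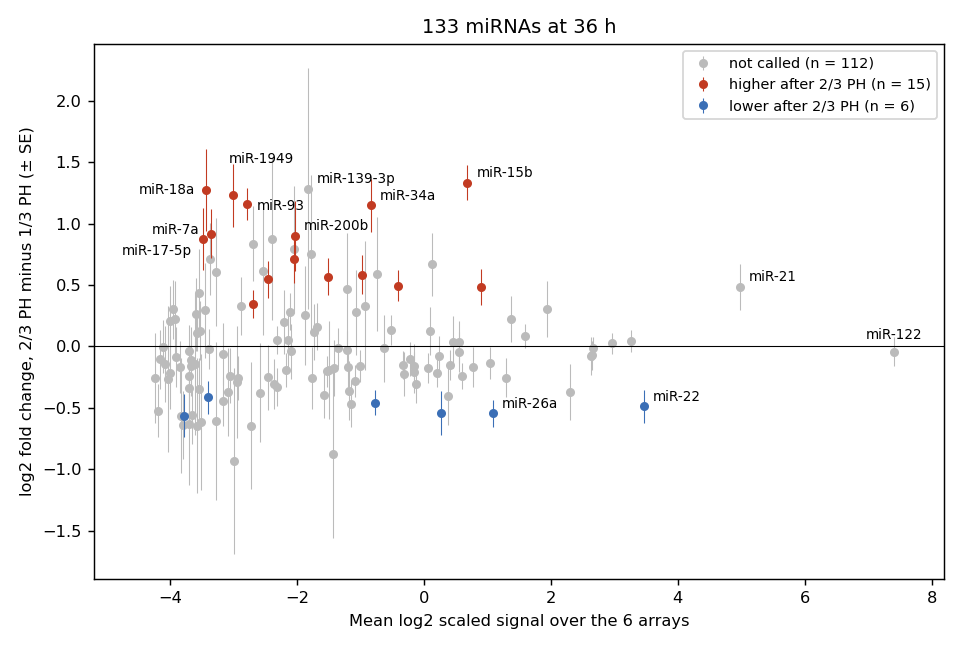
The difference between 2/3 PH and 1/3 PH at 36 hours (log2, bars are SE) against the mean log2 scaled signal of the 6 arrays, for 133 miRNAs. Called miRNAs are coloured (15 higher, 6 lower) and 112 grey miRNAs were not called; miR-139-3p stands as high as miR-18a but with an SE of 0.98.

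miR-221, known for promoting hepatocyte proliferation through p27, was the single member detected on no array of 1/3 PH. Its values there are the floor of each array, and the 2/3 PH arrays, at -3.71, -4.03 and -3.67, overlapped with floors of -4.29, -3.81 and -4.22. The difference of 0.30 ± 0.24 did not pass the test (limma, adjusted p = 0.463), and its direction was the opposite with the total gene signal (-0.45) and with the brightest probe (-0.29). Altogether 27 members were at the floor on at least 1 of the 6 arrays, 3 of them called (miR-18a, miR-17-5p and miR-1949).

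The members' sequences were set beside the differences, as a description. Over the 89 members with a sequence, GC content and the difference had a Pearson r of -0.01 and a Spearman rho of -0.06, and length and the difference 0.14 and 0.07. Over all 133, level and the size of the difference had an r of -0.19 and a rho of -0.18. All points share the same 6 arrays. Seeds did not sort the members into one direction throughout: of the 14 seeds held by more than 1 member, AGCAGCA was the only one with a member called each way. In the clusters of the miR-23, miR-27 and miR-24 miRNAs no member was called, where 15.3% of the 144 fitted were. miR-23b, miR-27b and miR-24 on chromosome 17 differed by -0.14, -0.18 and -0.21, and miR-23a and miR-27a on chromosome 19 by -0.16 and -0.11.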

How the data were processed

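Rat liver miRNA was measured on single-colour (Cy3) Agilent arrays. Per the file headers, the scanner software (Feature Extraction 10.7.3.1) gave a background-subtracted intensity per spot, and these deposited intensity values, not yet normalised between arrays, were the starting point. A table of log2 values, also from the authors, whose normalisation is not given in the sources used here, served as an alternative. Spots flagged as outliers were dropped, the spots of a probe averaged and the probes of a miRNA summed. Sums were floored at the lowest probe signal well above background on that array, divided by the array's 75th percentile among 109 probes that were well above background throughout, and log2 transformed. Detection was taken from the software's flag for each miRNA.

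Groups came from the sample titles. One limma fit (version 3.58.1, R 4.3.3; lmFit and eBayes, two-sided moderated test) held all 26 arrays in 9 groups and the 144 miRNAs that were detected throughout 1 or more groups, with 17 residual degrees of freedom. Calls had a Benjamini-Hochberg adjusted p under 0.05 over the 144. Replicates of 1 group were separate rats per the methods. The number of arrays limits the precision. When 30 of 144 simulated miRNAs were shifted by 1 on the log2 scale, 76% were recovered and 5% of calls were false. Of the 21 called members, 5 differed by more than that, and the recovery of smaller shifts was not tested. How scan day and slide, which moved with the operation, bear on these rates was not tested either.

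The members and lists were chosen with earlier results of these data known. The miRNAs named were every called member, the members of the clusters and families miR-106b-25, miR-17/miR-92a with miR-106a-363 and miR-15/16, the hepatocyte markers, the 3 brightest, the 3 next to the threshold, and up to 5 bounded by detection. Others were named after their values were seen. Arms of unsuffixed array names were assigned by name. Genes were placed by RefSeq spans on GRCr8, without strand. Alternatives covered scaling, background correction, probe summary, floor, detection, the deposited table, slide and scan day as blocks, the variance model and leaving out each array. Figures were drawn with Python 3.11.15 with matplotlib 3.10.9.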

Additional observations from a re-analysis of the deposited data

Results flagged for a closer look

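The difference between 2/3 PH and 1/3 PH in miR-15b was larger at 36 hours than at 24 hours, by 1.10 ± 0.20 on the log2 scale (limma interaction contrast, adjusted p = 0.00356), and was the single miRNA of the 144 fitted to pass this test. At 24 hours it was 0.23 ± 0.14 and at 36 hours 1.33 ± 0.14, with all 3 arrays of 2/3 PH above all 3 of 1/3 PH at 36 hours. At 24 hours 5 of the 6 arrays were read on the first scan day, and at 36 hours the operations were read on different days. With scan day as a fixed block 1 miRNA passed as well, and 0 passed with normexp, without scaling, with the percentile over all probes, with only the arrays compared, or with slide as a random block. Groups of 3 were too small to look for single outlying arrays.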

How the results depend on the processing

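No paired analysis was possible because the replicate numbers were given in accession order and pair no samples. The 21 calls at 36 hours became 33 at an unadjusted p, 0 with no scaling between arrays, 5 with the 75th percentile over all probes, 1 with normexp, 12 with the software's total gene signal, 10 in the deposited table, 9 with slide as a random block and 13 with scan day as a fixed block. Leaving out 1 array of the series gave 7 to 21 calls. The 1 call of the change from 24 to 36 hours (miR-15b) became 8 at an unadjusted p and 0 with normexp, no scaling, the percentile over all probes, only the arrays compared, or slide as a random block, and leaving out 1 array gave 1 each time. The 27 calls of 2/3 PH against normal liver became 49 at an unadjusted p, 1 with no scaling, 0 with the percentile over all probes, 3 with normexp, 15 in the deposited table and 12 with slide as a fixed block (21 to 35 without 1 array). The 0 calls of 1/3 PH against normal liver became 7 at an unadjusted p and stayed at 0 without any 1 array. The 47.4% outside the fold limits became 55.6% with no scaling, 69.9% with the percentile over all probes, 75.2% with normexp, 57.9% in the deposited table and 4.51% at limits of 0.5-fold and 2-fold, with 40.6% to 50.4% without 1 array. The higher share of the calls rose from 71.4% to 100% with the percentile over all probes, normexp and scan day as a fixed block. The cause of these changes was not tested.

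The median difference of the 133 members moved from -0.08 to 0.41 with the percentile over all probes, 0.50 with normexp and -0.21 with no scaling. Relative to that median, all 21 called members kept their side under these scalings, except miR-130a, miR-92a, miR-181a and miR-125a-5p with normexp. Of 1248 values of 32 named miRNAs, 25 changed sign, 5 of them of called members. With normexp these were 0.54 for miR-181a, 0.11 for miR-10a-5p, 0.55 for miR-125a-5p, 0.0521 for miR-497, 0.44 for miR-322 and 0.0418 for miR-194. With the percentile over all probes they were 0.0273 for miR-10a-5p, 0.0699 for miR-125a-5p, 0.18 for miR-497, 0.29 for miR-322, 0.44 for miR-122, 0.47 for miR-192 and 0.33 for miR-194. miR-221 was -0.45 with the total gene signal and -0.29 with the brightest probe. miR-21 was -0.0459 and miR-122 0 in the deposited table, and miR-122 was 0 with quantile normalisation. With scan day as a fixed block miR-122 was 0.14 and miR-192 0.0149, and with it as a random block miR-122 was 0.0518. Over the fits that left out 1 array, miR-122 ran from -0.0905 to 0.0286 and miR-192 from -0.0666 to 0.0204. With slide as a fixed block the contrast between the operations at 36 hours could not be fitted. 7 of the 21 calls held in all 26 fits that left out 1 array: miR-15b, miR-1949, miR-93, miR-34a, miR-7a, miR-26a and miR-10a-5p. Values near the floor of an array limit what dim miRNAs can show.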
